A study of Mus musculus with 24 samples.

Results

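N-cadherin (Cdh2) was described here together with 6 genes of the cadherin and catenin families in cultured mouse blood progenitors with and without the leukaemia fusion MLL::ENL. The 7 genes, of 55487 in the count table, were Cdh2, Pcdh7, Cdh1, Ctnna1, Ctnnb1, Ctnnd1 and Jup. Cdh2 and Pcdh7 were chosen by their measured difference in counts between fusion-bearing and control cells, so their values in those comparisons are given as a description with standard errors and no test. The other 5 were taken as binding partners or relatives of Cdh2 and were tested. All 7 passed the filter on low counts.

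The cells were LSK cells (lineage-negative, Sca1+, KIT+), a sorted fraction of stem cells and early multipotent progenitors. ME libraries came from Tet-On-ME mice, which carry MLL::ENL under a tetracycline-inducible system, and the fusion was switched on in culture. Control libraries came from mice labelled only as control. Libraries were sequenced after 48 h of culture, 4 in each of 6 groups: E16 ME and E16 control from fetal liver at embryonic day 16, P14 ME and P14 control from bone marrow at postnatal day 14, and 8wk ME and 8wk control from bone marrow at 8 weeks. The labels do not give the driver of the Tet-On system, the inducer, the controls' alleles, or whether libraries came from separate animals, so p-values measure the spread between libraries. Fetal samples are liver and the others marrow, so age and tissue cannot be told apart in comparisons with E16.

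Classical cadherins are transmembrane proteins that hold neighbouring cells together by binding the same cadherin on the next cell. Inside the cell their tails bind beta-catenin (Ctnnb1) or its relative plakoglobin (Jup), which pass the link on to alpha-catenin (Ctnna1) and actin, while p120-catenin (Ctnnd1) keeps the cadherin at the membrane. Beta-catenin that is not at a junction can enter the nucleus and act with TCF/LEF factors in Wnt signalling. In marrow N-cadherin is best known from stromal and bone-lining cells of the niche, and its presence on blood stem cells has been debated.

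Libraries held 33.9 to 69.3 M counts (M, 1e6; median 47.1 M) over 22259 to 25501 detected genes. E16 ME replicate 4, 8wk ME replicate 4 and 8wk control replicate 1 stood apart from their groups on the first principal component (29.2% of the variance), and the counts for the partners and the gene lists are also given without them. The fusion partners bore out the labels: Mllt1 (ENL) was higher in ME by 1.54 ± 0.29, 1.60 ± 0.29 and 1.48 ± 0.29 log2 at E16, P14 and 8wk (SE), and Kmt2a (MLL) by 0.85 ± 0.23, 1.03 ± 0.23 and 0.73 ± 0.23. The counts do not separate transgene from endogenous transcripts. All 8 LSK markers had at least 1 CPM in every group. CPM here means counts scaled to a common library size after trimmed-mean (TMM) scaling. Called means an adjusted p under 0.05. Of the 8 LSK markers 4 were called higher in ME and 0 lower at E16, 3 and 1 at P14, and 4 and 0 at 8wk. Over all genes 13.3%, 12.7% and 14.2% were called higher and 8.47%, 9.35% and 14.3% lower at these ages. The levels of several LSK markers thus differed between the genotypes.

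Cdh2 was nearly silent in control progenitors and clearly detected in ME progenitors of every age. The gene lies on chromosome 18 at 16588877 to 16809246 (minus strand, GRCm38). At E16 it had 43.5, 47.1, 61.0 and 32.4 CPM in ME libraries, against 0.680, 0.677, 0.567 and 0.936 CPM in controls. At P14 the ME libraries had 23.4, 21.8, 29.5 and 28.3 CPM and the controls 0.215, 0.0598, 0.226 and 0.439 CPM. At 8wk the ME libraries had 12.4, 13.8, 15.0 and 9.45 CPM, whereas 3 of the 4 controls had no count and control replicate 4 had 0.0429 CPM. The lowest ME library of each age therefore lay far above the highest control of any age.

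As fitted values with no test, Cdh2 was higher in ME by 6.01 ± 0.38 log2 at E16 and by 6.77 ± 0.40 log2 at P14 (SE). Without the 3 libraries that stand apart these were 6.15 ± 0.35 and 6.78 ± 0.36. At 8wk the controls held 2 counts in all against 2342 in ME, a ratio of 1353 (95% counting interval 374.1 to 11180). Both control counts came from replicate 4. Without that library the ME level was at least 705.2-fold higher, taking 3 counts over the remaining controls as the limit that a count of 0 allows. Interval and limit cover counting error only, and 63.6% of the small counts in a library (median) were even, as when both reads of a pair are counted, so the interval is too narrow. The share of all genes called in the ME comparisons, from which Cdh2 was picked, was 21.8% at E16, 22.0% at P14 and 28.5% at 8wk. In bulk RNA a larger share of Cdh2-positive cells and more Cdh2 RNA per cell cannot be told apart.

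Cdh2 levels also differed with age within each genotype. In ME libraries the mean was 46.0 ± 11.8 CPM at E16, 25.8 ± 3.72 CPM at P14 and 12.7 ± 2.38 CPM at 8wk (SD, n = 4 each). No library of an older ME group reached the lowest of a younger one. Among all genes tested, 7.10% showed that order between P14 ME and E16 ME, 8.01% between 8wk ME and P14 ME and 9.42% between 8wk ME and E16 ME. Control means ran 0.715 ± 0.156, 0.235 ± 0.156 and 0.0107 ± 0.0215 CPM in the same order of age. The control libraries entered the choice of Cdh2, so their age differences are also given with no test. P14 control was lower than E16 control by 1.60 ± 0.38 log2 (SE). Pooled counts were 75.14-fold higher in E16 control than in 8wk control (interval 20.36 to 627.5) and 24.58-fold higher in P14 control (6.489 to 208.1). Without 8wk control replicate 4 they were at least 39.17-fold and 12.81-fold higher. Both genotypes thus had their highest level at E16 and their lowest at 8wk.

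**Figure D1:**
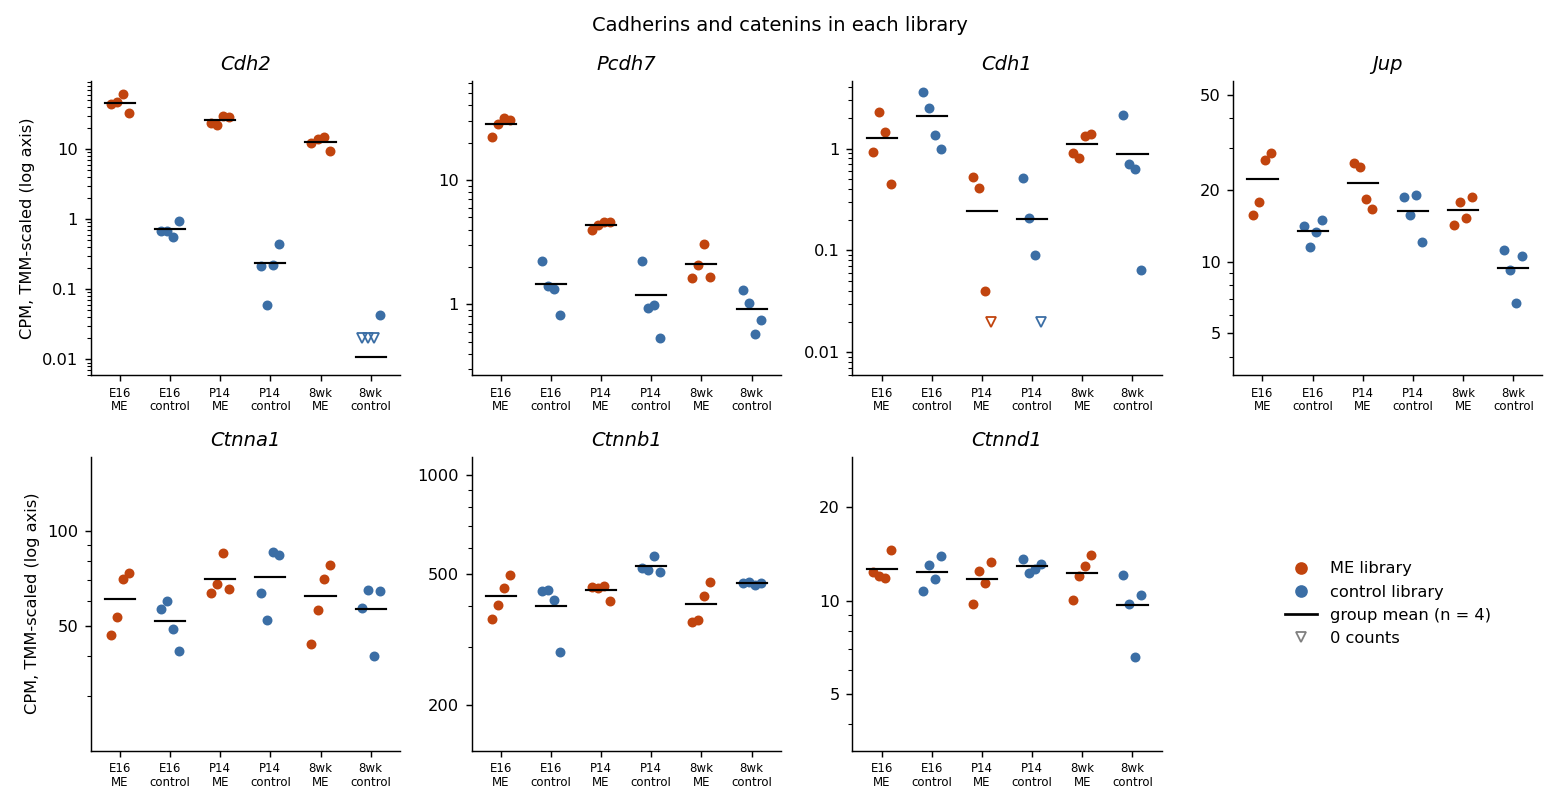
CPM of the 7 genes in each of the 24 libraries, on log axes that differ between panels. Points are libraries, horizontal bars are group means (n = 4) and open triangles are libraries with 0 counts, drawn at 0.02; ME lies far above control for Cdh2 at all ages, and for Pcdh7 mostly at E16 (28.1 CPM against 1.45 CPM).

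Marker lists of other cell types that can carry Cdh2 were read beside it. Of 8 hepatocyte genes 7 were under 1 CPM in every group, and Afp, the exception, averaged 6.03 CPM in E16 ME and 5.94 CPM in E16 control. Of 10 stromal genes 7 were under 1 CPM in E16 ME and 8 in E16 control, with Cxcl12 at 0 counts in E16 ME. Those above 1 CPM in every group were Runx2 and Pdgfrb, and Pdgfrb averaged 41.7 CPM in E16 ME and 62.1 CPM in E16 control. The summed stromal level ranged from 75.0 to 117.1 CPM in E16 ME and from 67.9 to 92.9 CPM in E16 control. It ranged from 113.9 to 158.7 CPM in P14 ME and from 89.7 to 140.9 CPM in P14 control, and from 64.4 to 173.3 CPM in 8wk ME and from 47.3 to 87.6 CPM in 8wk control. Runx2, a bone and blood transcription factor, was the stromal gene called at each age, higher in ME by 1.32 ± 0.27 log2 at E16, 1.57 ± 0.27 at P14 and 1.29 ± 0.27 at 8wk. Of the 8 endothelial genes 5 or 6 had at least 1 CPM, depending on the group. Plvap and Emcn were higher in ME at all 3 ages, Tie1 at E16 and Kdr at 8wk. Pecam1 averaged 41.0 CPM in E16 ME and 41.2 CPM in E16 control and Cdh5 0.686 and 0.395 CPM, and neither was called at any age. Endothelial sums ranged from 117.6 to 228.0 CPM in E16 ME and from 97.7 to 111.9 CPM in E16 control. They ranged from 134.6 to 155.2 CPM in P14 ME and from 103.2 to 130.8 CPM in P14 control, and from 138.4 to 237.4 CPM in 8wk ME and from 121.2 to 167.5 CPM in 8wk control. The part of these cell types in the Cdh2 values was not tested.

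On group average Cdh2 made up most of the cadherin message of ME progenitors before adulthood. Its share was lower in E16 ME replicate 4 (48.9%) and P14 ME replicate 3 (42.3%). Summed over 23 cadherin genes and divided by exon length, ME libraries held 9.57 ± 1.36 CPM per kb at E16, and controls 2.54 ± 0.290 (SD, n = 4). At P14 the sums were 5.77 ± 1.94 in ME and 1.66 ± 0.256 in control. At 8wk they were 3.74 ± 0.233 in ME and 3.05 ± 2.18 in control, where control replicate 4 had the highest sum of either group (6.29). Cdh2 accounted for 58.9% ± 7.27 of that sum in E16 ME and 3.54% ± 0.922 in E16 control. At P14 its share was 57.9% ± 11.4 in ME and 1.69% ± 1.04 in control, and at 8wk 42.4% ± 9.91 in ME and 0.0212% ± 0.0423 in control. Next to Cdh2 at E16 were Cdh17 and Cdh15, named after their values were seen. Cdh17 (LI-cadherin, of gut and B-lineage cells) averaged 6.66 ± 1.48 CPM in E16 ME and 3.85 ± 1.10 CPM in E16 control, and Cdh15 (M-cadherin, of muscle) 4.34 ± 1.91 CPM and 2.14 ± 0.745 CPM. Neither was called at any age. Cdh3 (P-cadherin) came from single libraries: 12.3 CPM in P14 ME replicate 3 and 20.5 CPM in 8wk control replicate 4, while every other library had at most 1.80 CPM.

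**Figure D2:**
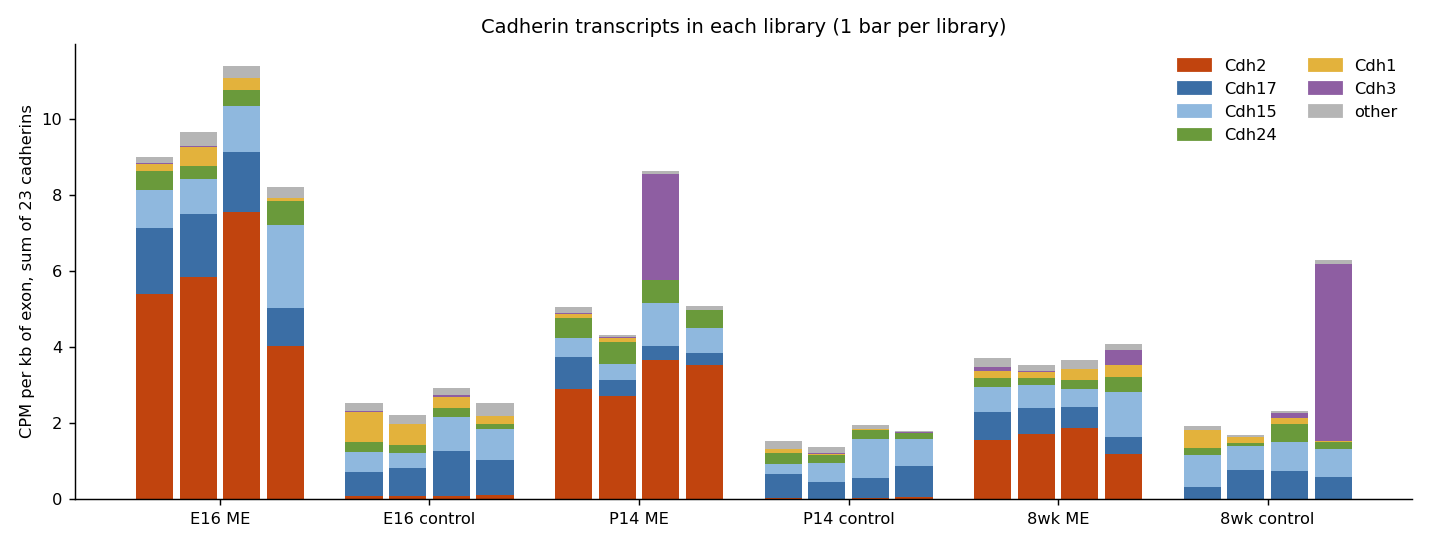
Sum of 23 cadherin genes in CPM per kb of exon, 1 bar per library, coloured by gene. Cdh2 fills about 58.9% of the E16 ME bars on average and 3.54% of the E16 control bars; the Cdh3 blocks belong to 1 library each in P14 ME and 8wk control, with a smaller one in 8wk ME replicate 4.

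Pcdh7, the other gene picked for its response, was high mainly in fetal ME cells. Protocadherin 7 is a surface protein of the protocadherin branch, whose members lack the beta-catenin binding tail of classical cadherins. The gene lies on chromosome 5 at 57717967 to 58133230 (plus strand). ME libraries at E16 had 22.2, 28.5, 31.4 and 30.4 CPM and controls 2.22, 1.41, 1.33 and 0.826 CPM. At P14 the ME libraries had 3.99, 4.34, 4.61 and 4.58 CPM and the controls 2.23, 0.942, 0.994 and 0.540 CPM. At 8wk the values were 1.62, 2.06, 3.08 and 1.67 CPM in ME and 1.30, 1.02, 0.576 and 0.751 CPM in controls. The groups did not overlap at any age, but the 8wk gap was narrow. Over all genes, all 4 libraries of one genotype lay above all 4 of the other in 27.2%, 26.5% and 21.0% at E16, P14 and 8wk.

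Its fitted ME effect was 4.27 ± 0.37 log2 at E16, 1.91 ± 0.34 at P14 and 1.21 ± 0.34 at 8wk (SE; a description, no test). The effect at 8wk minus that at E16 was -3.06 ± 0.48 log2, the effect at P14 minus that at E16 was -2.36 ± 0.47, and the effect at 8wk minus that at P14 was -0.70 ± 0.48. For Cdh2 the effect at P14 minus that at E16 was 0.77 ± 0.48 log2. Cdh2 was lower at later ages in both genotypes, whereas Pcdh7 differed with age in ME (28.1 ± 4.12, 4.38 ± 0.289 and 2.11 ± 0.677 CPM at E16, P14 and 8wk) far more than in controls (1.45 ± 0.575, 1.18 ± 0.733 and 0.912 ± 0.316 CPM). The fitted control differences of Pcdh7, again with no test, were -0.67 ± 0.34 log2 for 8wk against E16, -0.35 ± 0.34 for 8wk against P14 and -0.32 ± 0.34 for P14 against E16 (SE).

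**Figure D3:**
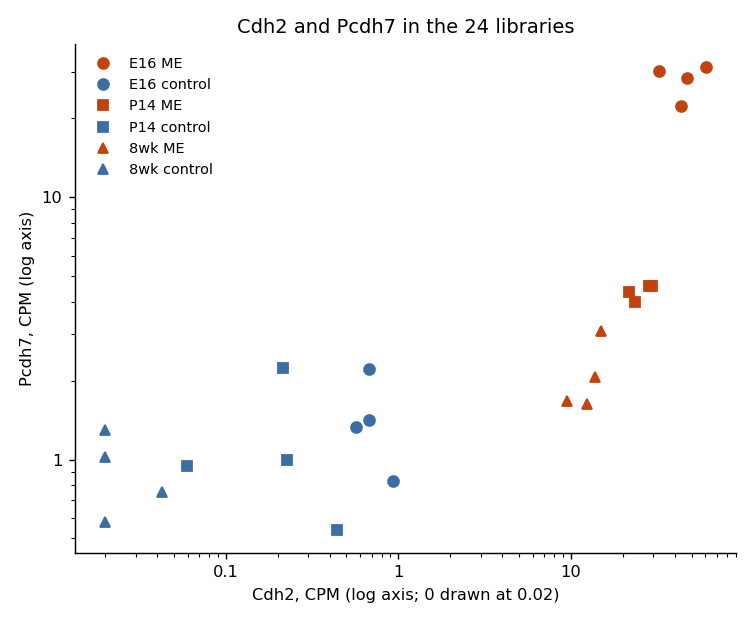
Pcdh7 against Cdh2 CPM in the 24 libraries, both on log axes, with ME in red, control in blue and a marker per age (Cdh2 values of 0 are drawn at 0.02). ME libraries line up by age from 8wk (Cdh2 12.7, Pcdh7 2.11 CPM on average) to E16 (46.0 and 28.1), while control libraries spread along Cdh2 with Pcdh7 near 1 CPM.

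The span of Pcdh7 overlaps small annotated transcripts (gene spans were compared, not exons or reads). Of 6 tested genes within 1 Mb, 2 were higher in ME at E16, and both overlap Pcdh7: 4932441J04Rik, on the opposite strand, by 3.62 log2 and Gm42635, on the same strand, by 3.19 log2. Whether counting used strand is not given in the sources used here, and Gm42635 shares the strand of Pcdh7. The 2 transcripts therefore cannot be told apart from Pcdh7 itself. They held 327 and 161 counts over the 24 libraries, against 5460 for Pcdh7 in E16 ME alone. None of the 6 was called at P14 or 8wk. Of 3 tested genes within 1 Mb of Cdh2, none was called at E16 or P14, and Gm10036 was lower at 8wk by 0.55 log2.

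RefSeq promoter windows (300 bases around the gene start, GRCm38.p6) were matched for 4 of the 7 genes: Pcdh7, Jup, Ctnnb1 and Ctnnd1. The windows of Pcdh7 and Jup are printed because these were the genes among those 4 whose RNA was higher in ME. Both strands were searched for CAGGTG (an E-box of Snail and Zeb factors, in 20.21% of 32851 windows), CTTTGA (the TCF/LEF core, 16.0%), TGACAG (a MEIS core, 19.18%) and TGATTNAT (a HOX-PBX form, 3.221%). The motifs do not overlap in these windows, and capitals mark each match, read 5′ to 3′ on the gene's strand. Pcdh7, at chr5:57717831-57718130 (plus strand), holds 1 CTTTGA, 1 CAGGTG and 11 CpG. Jup, at chr11:100397741-100398040 (minus strand), holds 1 TGACAG, on the other strand, and 14 CpG, against a median of 7 CpG over all windows. Ctnnb1 and Ctnnd1, not called in ME, have 2 windows each. The only motif match in these was 1 TGATTNAT in window 2 of Ctnnd1.
Pcdh7: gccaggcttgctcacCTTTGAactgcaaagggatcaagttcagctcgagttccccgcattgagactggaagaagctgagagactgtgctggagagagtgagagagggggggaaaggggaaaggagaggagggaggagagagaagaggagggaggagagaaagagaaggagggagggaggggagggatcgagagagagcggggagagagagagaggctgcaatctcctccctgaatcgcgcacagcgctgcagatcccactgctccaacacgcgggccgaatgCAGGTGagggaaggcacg
Jup: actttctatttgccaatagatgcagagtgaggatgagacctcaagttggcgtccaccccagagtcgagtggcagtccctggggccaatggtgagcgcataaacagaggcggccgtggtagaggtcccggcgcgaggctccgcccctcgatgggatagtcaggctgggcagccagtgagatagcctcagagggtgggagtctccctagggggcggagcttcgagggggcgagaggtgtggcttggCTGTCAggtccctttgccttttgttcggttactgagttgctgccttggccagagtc

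Jup was the partner that rose with the fusion. Plakoglobin can take the place of beta-catenin at classical cadherins and also joins desmosomal cadherins. The gene lies on chromosome 11 at 100368958 to 100397763 (minus strand). ME libraries at E16 had 15.8, 17.8, 26.8 and 28.7 CPM and controls 14.1, 11.5, 13.4 and 14.9 CPM. At P14 the values were 26.1, 25.1, 18.3 and 16.6 CPM in ME and 18.6, 15.7, 19.1 and 12.1 CPM in controls, which overlapped. At 8wk the ME libraries had 14.3, 17.9, 15.3 and 18.7 CPM, all above the controls at 11.2, 9.25, 6.70 and 10.6 CPM.

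Jup rose in ME by 0.72 ± 0.21 log2 at E16 (SE; edgeR adjusted p = 0.0144) and by 0.81 ± 0.21 at 8wk (adjusted p = 0.00578). Its P14 difference of 0.39 ± 0.21 was not called (adjusted p = 0.183). The 8wk call held under every alternative run, with adjusted p up to 0.0232 when single libraries were left out. The E16 call ended without E16 control replicate 2 (adjusted p = 0.0517), without E16 ME replicate 4 (0.0685) and without the 3 libraries that stand apart (0.0605). No difference of the ME effect between ages was called for Jup. The interval around those differences is wide: the effect at 8wk minus that at P14 was 0.42 ± 0.29 log2.

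Beta-catenin itself did not pass the test in any ME comparison. Ctnnb1, on chromosome 9 at 120929216 to 120960507 (plus strand), was the most abundant of the 7 genes. It had 363.2, 402.9, 453.8 and 495.6 CPM in E16 ME and 442.2, 446.1, 414.8 and 290.0 CPM in E16 control. P14 ME libraries had 456.8, 452.0, 457.9 and 414.2 CPM, below all P14 controls at 518.5, 513.4, 566.7 and 507.4 CPM. In 8wk ME it had 355.4, 362.0, 427.6 and 472.2 CPM and in 8wk control 469.6, 470.3, 461.5 and 469.8 CPM. The fitted ME effect was 0.11 ± 0.12, -0.24 ± 0.12 and -0.21 ± 0.12 log2 at E16, P14 and 8wk (adjusted p = 0.559, 0.147 and 0.188). With only the P14 libraries in the fit the P14 difference was called (adjusted p = 0.0398).

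Ctnna1, Ctnnd1 and Cdh1 were not called in any ME comparison. Ctnna1, which connects the complex to actin, lies on chromosome 18 at 35118859 to 35254779 (plus strand). It averaged 61.0 ± 13.1 CPM in E16 ME and 51.8 ± 8.14 CPM in E16 control, 70.5 ± 9.91 and 71.3 ± 16.3 CPM in P14 ME and control, and 62.1 ± 15.3 and 56.5 ± 11.5 CPM in 8wk ME and control (SD, n = 4). Its fitted ME effect was 0.24 ± 0.20, -0.02 ± 0.20 and 0.14 ± 0.20 log2 at E16, P14 and 8wk (adjusted p = 0.430, 0.969 and 0.659). Ctnnd1, on chromosome 2 at 84600071 to 84650765 (minus strand), averaged 12.7 ± 1.26 CPM in E16 ME and 12.4 ± 1.41 CPM in E16 control, 11.7 ± 1.53 and 12.9 ± 0.562 CPM in P14 ME and control, and 12.3 ± 1.68 and 9.72 ± 2.32 CPM in 8wk ME and control. Its 8wk difference of 0.34 ± 0.16 log2 had an adjusted p of 0.118, or 0.0329 without 8wk control replicate 1.

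E-cadherin (Cdh1), the epithelial counterpart of N-cadherin, stayed low. The gene lies on chromosome 8 at 106603351 to 106670246 (plus strand). ME libraries had 0.922, 2.29, 1.46 and 0.448 CPM at E16, and controls 3.56, 2.52, 1.35 and 0.991 CPM. At P14 every library had at most 0.521 CPM, and 1 library of each genotype had no count. At 8wk it had 0.902, 0.806, 1.32 and 1.40 CPM in ME and 2.15, 0.708, 0.629 and 0.0644 CPM in controls. The fitted differences were -0.72 ± 0.84, 0.30 ± 1.00 and 0.30 ± 0.85 log2, so changes of that size did not exceed the spread between libraries. The summed erythroid markers, from cells that also carry E-cadherin, ranged from 88.2 to 1017 CPM over E16 ME libraries and from 618.9 to 978.5 CPM over E16 controls. Their part in the Cdh1 values was not tested.

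**Figure D4:**
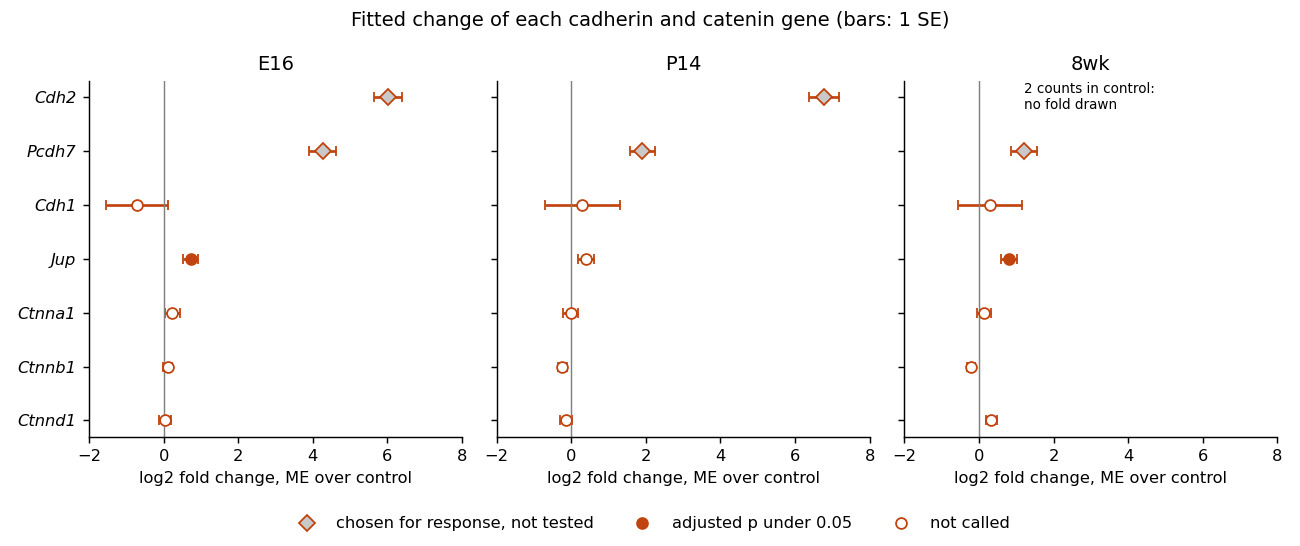
Fitted log2 fold change of ME over control for each gene at each age, with bars of 1 SE. Filled circles passed the test (Jup at E16 and 8wk), open circles did not, and grey diamonds are the genes picked for their response; the 8wk change of Cdh2 is not drawn because its controls held 2 counts.

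Over the 5 tested partners edgeR called 1 at E16, 0 at P14 and 1 at 8wk, Jup each time. Among all 18931 genes 21.8%, 22.0% and 28.5% were called, so the partners' counts are near that background. Without the 3 libraries that stand apart 0, 0 and 1 were called. At P14, 1 had an unadjusted p under 0.05 (Ctnnb1), and DESeq2 and limma-voom called none. No difference of the ME effect between ages was called for any of the 5 by edgeR, DESeq2 or limma-voom. Unadjusted p was under 0.05 for 0 of 5 in 8wk minus E16, 1 (Ctnnd1) in 8wk minus P14 and 1 (Ctnnb1) in P14 minus E16. Over all genes 0.850%, 0.301% and 0.0211% were called in those differences. The comparisons that share control or ME libraries are not independent.

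Set against its partners per kb of exon, Cdh2 message reached a sizeable part of the Ctnna1 message in ME cells. The ratio was 62.2% ± 18.3 in E16 ME and 1.14% ± 0.433 in E16 control, 29.3% ± 3.75 in P14 ME and 0.247% ± 0.136 in P14 control, and 17.2% ± 5.56 in 8wk ME and 0.0133% ± 0.0266 in 8wk control (SD, n = 4). Against Ctnnb1, which was far more abundant, Cdh2 amounted to 7.02% ± 1.94 in E16 ME and 0.123% ± 0.0566 in E16 control. Jup amounted to 4.12% ± 0.679 of Ctnnb1 in E16 ME and 2.85% ± 0.898 in E16 control, with overlapping libraries (lowest ME 3.50%, highest control 4.15%). At P14 it was 3.88% ± 0.762 in ME and 2.50% ± 0.423 in control, with the lowest ME library (3.22%) above the highest control (2.90%). At 8wk it was 3.33% ± 0.463 in ME and 1.62% ± 0.332 in control (lowest ME 2.88%, highest control 1.92%). These are ratios of RNA, not of protein.

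Control progenitors were compared between ages for the same partners. Cdh1 was lower in P14 control than in E16 control by 3.41 ± 0.96 log2 (adjusted p = 0.0181). That call ended without a filter on low counts (0.0586), without E16 control replicate 1 (0.0543), without P14 control replicate 3 (0.0632) and without P14 control replicate 4 (0.0509). Ctnnb1 was higher in P14 control than in E16 control by 0.40 ± 0.12 log2 (adjusted p = 0.0209), a call that ended without E16 control replicate 4 (0.0532) or P14 control replicate 3 (0.0664). Jup was lower in 8wk control than in P14 control by 0.80 ± 0.21 log2 (adjusted p = 0.0157), which ended without 8wk control replicate 3 (0.0578) or P14 control replicate 3 (0.0656). Of the 5 partners 2 were called in P14 against E16, 1 in 8wk against P14 and 0 in 8wk against E16, where 15.1%, 12.6% and 23.3% of all genes were. Without the 3 libraries that stand apart 2 were called in each. In 8wk against E16, 2 partners had an unadjusted p under 0.05, DESeq2 called 1 and limma-voom none.

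The remaining genes of the junction and of beta-catenin signalling were read from 10 lists holding 188 genes. Beside the counts below, the share called over all genes was 13.3%, 12.7% and 14.2% for higher and 8.47%, 9.35% and 14.3% for lower at E16, P14 and 8wk. The median log2 change of all genes was 0.02, 0.03 and -0.02. Higher genes were 61.1%, 57.5% and 49.8% of those called. With library size as the only scaling they were 74.6%, 70.5% and 56.6%, and the median of all genes moved to 0.11 at E16 and P14. After GC correction they were 51.9%, 46.9% and 47.9%. Markers of more mature cells moved as well: of 8 macrophage genes 6 were higher at 8wk, with sums of 43.6 to 313.9 CPM in ME and 13.3 to 84.9 CPM in control, and of 8 megakaryocyte genes 5 were lower at E16, with sums of 171.0 to 298.1 CPM in ME and 350.5 to 673.4 CPM in control. Of 6 B cell genes 5 were higher at P14, with sums of 38.3 to 245.5 CPM in ME and 37.5 to 43.8 CPM in control. Their part in the lists below was not tested.

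Among the other cadherins too few genes were tested to set their calls apart from the share over all genes. That share was 13.3%, 12.7% and 14.2% for higher at E16, P14 and 8wk. Of 23 classical and other cadherins 9 passed the filter, and among the 8 left beside Cdh2 the called genes were Cdh24 at E16 and P14 and Cdh3 at P14. Without the 3 libraries that stand apart 1 was higher at E16, 2 were higher at P14, and 1 was higher and 1 lower at 8wk, Cdh2 again left aside. Cdh24 averaged 1.63 ± 0.403 CPM in E16 ME and 0.740 ± 0.213 CPM in E16 control (1.13 ± 0.38 log2, adjusted p = 0.0386), and 1.87 ± 0.218 CPM in P14 ME and 0.782 ± 0.197 CPM in P14 control (1.26 ± 0.38, adjusted p = 0.02). Both calls ended after GC correction (0.219 and 0.270). The E16 call also ended without the 3 libraries that stand apart (0.0931) and without each of 5 single libraries (adjusted p up to 0.118). The P14 call ended without P14 control replicate 2 (0.0515) or 4 (0.0702). The Cdh3 call rests on P14 ME replicate 3, without which its adjusted p was 0.936. It also ended with the replicate number as a block (0.0942) and with limma-voom (0.492). Of 12 protocadherins outside the gene clusters Pcdh7 and Pcdh1 passed the filter, and Pcdh1 was not called.

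Few genes of the list of desmosomal and large cadherins were called, and Dsg2 and Dsc2 were the desmosomal cadherins tested. Of 26 desmosomal and large cadherins 12 were tested, with 1 higher and 0 lower at E16, 0 higher and 1 lower at P14, and 0 higher and 2 lower at 8wk. Without the 3 libraries that stand apart these were 0 and 1, 1 and 1, and 2 and 1. Dsg2 (desmoglein 2) averaged 2.64 ± 0.654 CPM in P14 ME and 6.12 ± 0.849 CPM in P14 control, lower by 1.21 ± 0.30 log2 (adjusted p = 0.00541). At 8wk it averaged 1.74 ± 0.882 CPM in ME and 3.99 ± 0.714 CPM in control, lower by 1.2 ± 0.30 (adjusted p = 0.00532, or 0.0522 with only the 8wk libraries). The list's median change at 8wk was 0.71 log2, opposite in sign to the called genes.

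Linker proteins were called in both directions. Of 18 catenins and linkers 14 were tested, with 2 higher and 2 lower at E16, 2 and 3 at P14, and 4 and 2 at 8wk (1 and 3, 2 and 3, and 4 and 3 without the 3 libraries). Vinculin (Vcl), which ties alpha-catenin to actin, averaged 49.6 ± 10.9 CPM in E16 ME and 73.9 ± 4.47 CPM in E16 control and fell by 0.57 ± 0.18 log2 (adjusted p = 0.0232). At P14 it fell by 0.58 ± 0.18 (adjusted p = 0.0216) and at 8wk by 0.48 ± 0.18 (adjusted p = 0.0453). The E16 and P14 calls ended with library size only (0.0657 and 0.0580) and without single libraries, at E16 without control replicate 1 or ME replicate 1 or 4 (up to 0.0834), and at P14 without control replicate 3 or 4 or ME replicate 4 (up to 0.0890). The alpha-catenin relative Ctnnal1 averaged 22.7 ± 8.24 CPM in 8wk ME and 42.0 ± 4.65 CPM in 8wk control and fell by 0.88 ± 0.19 (adjusted p = 0.00177), a call that held under every alternative run. The desmosomal plakophilin Pkp3 averaged 12.9 ± 2.45 CPM in P14 ME and 7.06 ± 0.860 CPM in P14 control and rose by 0.87 ± 0.17 (adjusted p = 8.93e-04, or 0.290 after GC correction).

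Nectins, which seed adherens junctions, and tight junction proteins were called mostly higher. Of 19, 16 were tested, with 4 higher and 0 lower at E16, 1 and 0 at P14 and 5 and 1 at 8wk (3 and 0, 3 and 0, and 6 and 2 without the 3 libraries). Nectin4 averaged 4.87 ± 3.68 CPM in E16 ME and 1.62 ± 0.484 CPM in E16 control and rose by 1.59 ± 0.38 log2 (adjusted p = 0.00485). E16 ME replicate 4 carried much of it, at 10.3 CPM against 1.96, 3.45 and 3.80 CPM in the other ME libraries, and without it the change was 0.93 log2 (adjusted p = 0.0471). Pvr, the poliovirus receptor and a nectin relative, rose at 8wk by 0.59 ± 0.14 (adjusted p = 0.00252), and the junctional molecule Jam3 fell there by 0.75 ± 0.19 (adjusted p = 0.00607). These 3 calls held under every alternative run. The list's median change was 0.63, 0.36 and 0.43 log2 at E16, P14 and 8wk. Of 8 epithelial markers 1 was called higher at each age: Epcam at E16 by 2.58 ± 0.42 log2 and at P14 by 1.86 ± 0.39, and Cldn4 at 8wk by 1.49 ± 0.50. Krt5, Krt14, Krt19 and Krt8 were under 1 CPM in every group, while Krt18 averaged 8.21 CPM in E16 ME and 6.04 CPM in E16 control, and 22.8 CPM in 8wk ME and 32.8 CPM in 8wk control.

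Src and Fyn, kinases that phosphorylate cadherin complexes, rose at all 3 ages. Src averaged 35.6 ± 4.25 CPM in E16 ME and 1.03 ± 0.538 CPM in E16 control, 26.7 ± 7.52 and 1.15 ± 0.536 CPM in P14 ME and control, and 28.5 ± 2.87 and 1.09 ± 0.867 CPM in 8wk ME and control. It rose by 5.09 ± 0.47, 4.54 ± 0.46 and 4.69 ± 0.46 log2 (adjusted p = 3.90e-07, 8.22e-07 and 1.12e-06), and its relative Fyn by 2.54 ± 0.36, 2.77 ± 0.37 and 2.41 ± 0.36 (adjusted p = 4.90e-05, 1.83e-05 and 7.71e-05). Of the 19 genes for cleavage and phosphorylation 3 were higher and 1 lower at E16, 3 and 3 at P14 and 5 and 2 at 8wk (3 and 2, 4 and 3, and 5 and 4 without the 3 libraries). Ptprk, a receptor phosphatase of junctions, averaged 5.77 ± 0.701 CPM in P14 ME and 11.0 ± 0.759 CPM in P14 control and fell by 0.93 ± 0.23 (adjusted p = 0.00612). At 8wk the cadherin sheddase Adam17 rose by 0.33 ± 0.09 (adjusted p = 0.00997, or 0.0567 with only the 8wk libraries), and Ncstn, a gamma-secretase subunit, by 0.44 ± 0.11 (adjusted p = 0.00548).

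Of 17 transcription factors and related regulators of the switch between E- and N-cadherin in epithelial cells 7 passed the filter, and Zeb2 was the one called, at P14 and 8wk. Without the 3 libraries that stand apart 0 were higher and 1 lower at E16, 1 and 1 at P14 and 1 and 0 at 8wk. Zeb2 averaged 39.5 ± 8.02 CPM in P14 ME and 22.1 ± 4.44 CPM in P14 control (0.84 ± 0.20 log2, adjusted p = 0.00436), and 53.6 ± 10.5 CPM in 8wk ME and 28.6 ± 7.53 CPM in 8wk control (0.91 ± 0.20, adjusted p = 0.00202). At E16 it averaged 52.8 ± 9.15 CPM in ME and 38.9 ± 6.45 CPM in control (0.44 ± 0.20, adjusted p = 0.122). Snai1, Snai2, Twist1 and Twist2 were all under 1 CPM in every group. The E-proteins Tcf3 and Tcf4 averaged 201.4 and 118.4 CPM in E16 ME and 126.0 and 105.7 CPM in E16 control, and Zeb1 23.5 CPM in E16 ME and 22.7 CPM in E16 control, with no call at any age.

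Several Wnt receptors were higher in ME at all 3 ages. Of 15 receptors 13 were tested, with 8 higher and 0 lower at E16, 5 and 0 at P14 and 4 and 1 at 8wk (8 and 0, 5 and 0, and 5 and 0 without the 3 libraries). The co-receptor Lrp6 averaged 38.3 ± 9.53 CPM in E16 ME and 13.3 ± 1.93 CPM in E16 control and rose by 1.52 ± 0.23, 1.48 ± 0.23 and 1.63 ± 0.23 log2 at E16, P14 and 8wk (adjusted p = 5.49e-05, 6.37e-05 and 2.87e-05). Its relative Lrp5 rose by 1.46 ± 0.36, 1.74 ± 0.36 and 1.89 ± 0.37 (adjusted p = 0.00618, 0.00141 and 6.90e-04). Among Frizzled receptors, Fzd7 rose by 2.28 ± 0.36, 2.38 ± 0.35 and 1.97 ± 0.35, and Fzd9 by 3.23 ± 0.50, 3.89 ± 0.52 and 3.56 ± 0.56, all with adjusted p of 3.19e-04 or less. These 12 calls held under every alternative run. Fzd9 differed between ME libraries, at 16.5, 13.3, 8.31 and 3.74 CPM at E16 against 1.12, 0.799, 1.35 and 1.16 CPM in controls, and the ME library with the lowest value was replicate 4 at every age.

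Genes of the beta-catenin destruction complex and the TCF factors were called higher more often than lower. Of 20, 19 were tested, with 8 higher and 0 lower at E16, 7 and 1 at P14 and 8 and 1 at 8wk (7 and 0, 8 and 1, and 9 and 1 without the 3 libraries). Ctnnbip1, which keeps beta-catenin from binding TCF factors, averaged 19.1 ± 4.96 CPM in E16 ME and 2.66 ± 1.25 CPM in E16 control and rose by 2.83 ± 0.39, 3.01 ± 0.39 and 2.42 ± 0.38 log2 at the 3 ages. The kinase gene Gsk3a rose by 2.55 ± 0.37, 2.75 ± 0.37 and 2.97 ± 0.37. Adjusted p for both was at most 9.76e-05. Tcf7l1, a TCF factor known mainly as a repressor, averaged 2.84 ± 1.01 CPM in P14 ME and 0.235 ± 0.0491 CPM in P14 control and rose by 3.57 ± 0.42 (adjusted p = 3.30e-06). Tcf7l2, another TCF factor, rose by 0.75 ± 0.16 log2 at E16 (edgeR adjusted p = 0.0023) and by 0.71 ± 0.16 at 8wk (adjusted p = 0.0027). The called genes thus include inhibitors of the pathway and TCF factors.

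Textbook targets of beta-catenin were called in both directions. Of 19 targets 16 were tested, with 5 higher and 2 lower at E16, 4 and 2 at P14 and 4 and 2 at 8wk (4 and 2, 6 and 2, and 4 and 2 without the 3 libraries). Lgr5, a Wnt target and stem cell receptor, averaged 1.84 ± 0.497 CPM in E16 ME and 0.415 ± 0.156 CPM in E16 control (2.14 ± 0.48 log2, adjusted p = 0.00272). Myc averaged 277.7 ± 24.0 CPM in E16 ME and 488.1 ± 43.7 CPM in E16 control and fell by 0.81 ± 0.13, 0.55 ± 0.13 and 0.68 ± 0.13 log2 at E16, P14 and 8wk (adjusted p = 1.37e-04, 0.00398 and 6.28e-04). Axin2, the target used most often as a readout and named after its values were seen, averaged 0.786 ± 0.512 CPM in E16 ME and 0.951 ± 0.426 CPM in E16 control, 0.830 ± 0.173 and 0.356 ± 0.0653 CPM in P14 ME and control, and 0.474 ± 0.267 and 0.342 ± 0.0749 CPM in 8wk ME and control. It was not called at any age (adjusted p = 0.710, 0.0525 and 0.498). The list's median change was 0.00 log2 at E16, 0.93 at P14 and 0.73 at 8wk.

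**Figure D5:**
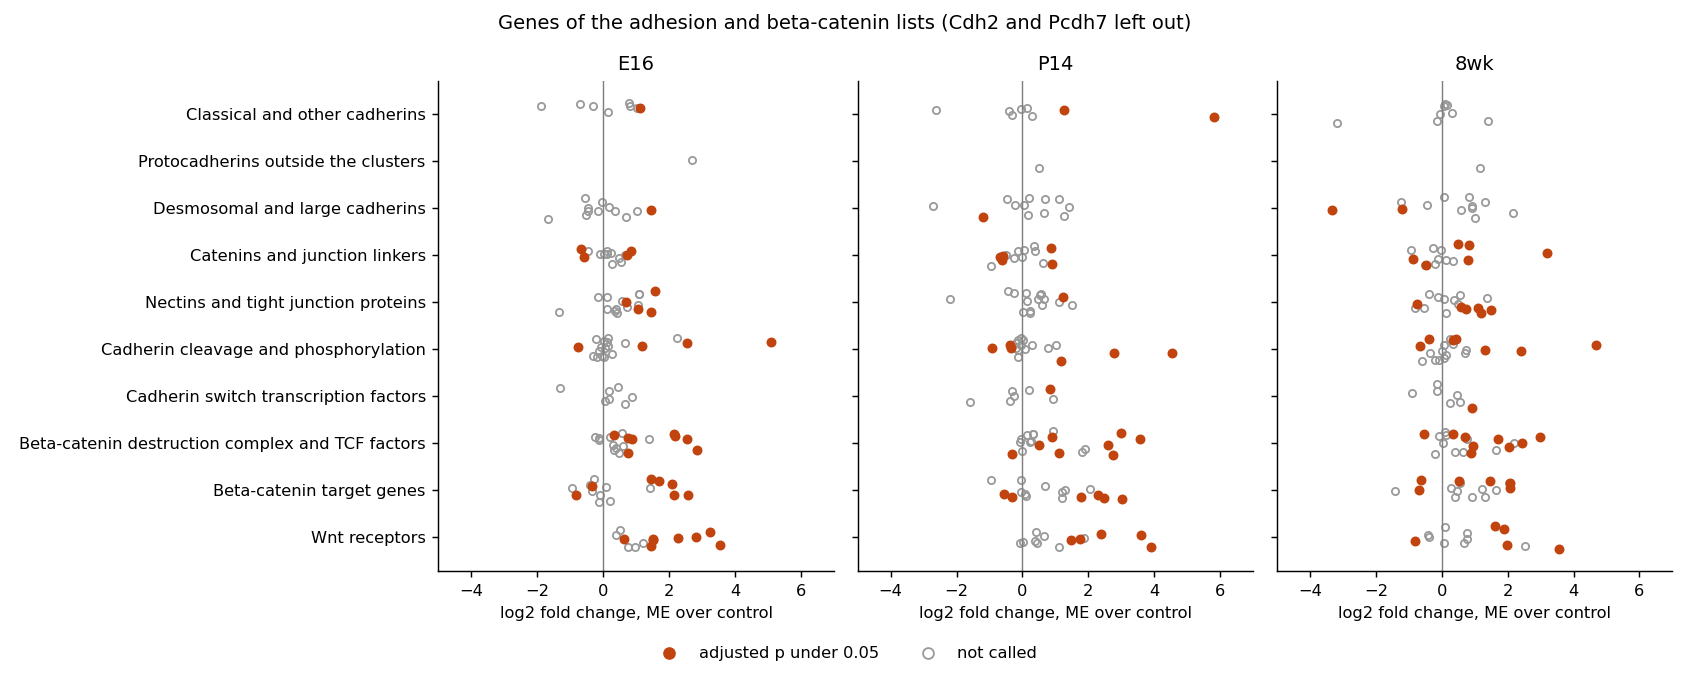
Log2 fold change of ME over control for the tested genes of the 10 lists at each age, 1 point per gene, with Cdh2 and Pcdh7 left out. Filled points passed the test and open points did not; Wnt receptors lie mostly right of 0 (8 higher and 0 lower at E16), and catenins and linkers lie on both sides.

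The genes whose profile was most like that of Cdh2 were ranked by Pearson's r of log2 CPM over the 24 libraries, among 10396 genes with a group mean of at least 5 CPM. The order was Il9r (0.967), Sh2b3 (0.955), Slc29a3 (0.946), H6pd (0.936) and Trim14 (0.935). Sh2b3, an adaptor that dampens cytokine signalling, averaged 63.3 ± 18.0 CPM in E16 ME and 9.37 ± 1.84 CPM in E16 control, and 43.8 ± 14.4 CPM in 8wk ME and 5.19 ± 1.95 CPM in 8wk control. The lowest r belonged to Maoa (-0.952), Poglut2 (-0.921) and Mettl1 (-0.919). Among the 7 genes themselves, r with Cdh2 was 0.787 for Pcdh7, 0.737 for Jup, 0.333 for Ctnnd1, 0.188 for Ctnna1, 0.048 for Cdh1 and -0.358 for Ctnnb1. All of these values hold the ME and control difference as well as depth and culture, and are descriptions.

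Within the 12 ME libraries alone, where genotype does not vary, the most similar profiles were those of Celf2 (0.963), Lin28b (0.961), Cxcr3 (0.961), Skp2 (0.961) and Lrrc39 (0.952). Lin28b, an RNA-binding protein of fetal blood progenitors, averaged 49.3 ± 10.7 CPM in E16 ME and 47.6 ± 6.66 CPM in E16 control, and 0.355 ± 0.222 CPM in 8wk ME and 1.37 ± 0.267 CPM in 8wk control. For Pcdh7 over the 24 libraries the order was Ranbp9 (0.926), Xk (0.915), Thbd (0.904), Dnmt3b (0.891) and Rgl1 (0.880). Ranbp9 averaged 40.6 ± 14.9 CPM in E16 ME and 6.48 ± 0.867 CPM in E16 control. The 12 ME libraries fall into 3 ages, so r there mostly reads the order of ages.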

How the data were processed

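RNA was sequenced from 24 LSK libraries in 6 groups of 4. Reads were aligned with STAR 2.7.9a to GRCm38 and counted with featureCounts 2.0.3, per the submitters' processing notes. The kit named in the labels' protocols is a Clontech one. The annotation, strand setting and treatment of multi-mapping reads are not given in the sources used here. The values are raw counts per gene as deposited by the authors, with no normalization, over 55774 lines and 55487 gene IDs, of which 168 stand on several lines with identical values and were kept once. 55141 IDs are in GENCODE M21, which gave coordinates and exon lengths. No sample column was left unused.

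Counts were fitted with edgeR 4.0.16 (robust quasi-likelihood test, TMM, filterByExpr with a minimum of 10, 1 mean per group) in R 4.3.3 over all 24 libraries, giving 18931 tested genes and 9 comparisons. Calls have a Benjamini-Hochberg adjusted p under 0.05, two-sided. The fit was tested on simulated data. Alternatives used limma-voom (limma 3.58.1), DESeq2 1.42.0, other scalings and filters, a GC correction, the replicate number as a block, fewer groups and each library left out. Leaving out the 3 libraries that stand apart was chosen after seeing the data. Depth of 33.9 to 69.3 M counts per library limits genes near 0. Intervals are exact at 95% and cover counting error only.

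The members and gene lists were chosen with earlier results of these data known. Named genes are the 7 members, Kmt2a and Mllt1 and, per list and ME comparison, up to 4 called genes with the smallest adjusted p and a group mean of at least 1 CPM. Genes likest to Cdh2 and Pcdh7 were the 5 highest and 3 lowest Pearson r of log2 CPM (prior count 2). Same-numbered ME and control libraries deviated together at P14 (r 0.137 to 0.232 over genes, each pair above 0.1). Most P14 pairs with different numbers had a negative r. The exceptions included ME replicate 3 with control replicate 4 (0.242) and ME replicate 2 with control replicate 1 (0.157). These r values do not settle whether the numbers pair the P14 samples. The main fit had no pair term, and the block alternative used the replicate number over all 24 libraries. At E16 (r -0.043 to 0.001) and 8wk (-0.088 to 0.118) the r of same-numbered libraries does not settle pairing either. On the first principal component replicate 1 lay below replicate 4 in each of the 6 groups.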

Additional observations from a re-analysis of the deposited data

Results flagged for a closer look

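Among the 42 groups of 4 values examined for the 7 genes, 3 held a library far from the other 3, where chance alone flags about 1 group in 20. Cdh2 in 8wk control replicate 4 was 0.0429 CPM and the other 3 controls had 0 counts. The rule flags any such group whatever the value, because the other 3 are 0, so that chance share does not apply to it. Ctnnb1 in P14 ME replicate 4 was 414.2 CPM, against 452.0 to 457.9 CPM in the other P14 ME libraries. Ctnnb1 in 8wk control replicate 3 was 461.5 CPM, against 469.6 to 470.3 CPM in the other 8wk controls, a gap that is small beside the spread of the other groups.

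Cd44, a hyaluronan receptor and listed target of beta-catenin, was the list gene whose ME effect differed between ages. It averaged 242.2 ± 35.8 CPM in 8wk ME and 168.6 ± 25.3 CPM in 8wk control (0.52 ± 0.10 log2, edgeR adjusted p = 8.58e-04). At E16 it averaged 165.9 ± 15.7 CPM in ME and 210.7 ± 7.78 CPM in control (-0.35 ± 0.10, adjusted p = 0.0205), and at P14 144.9 ± 6.26 CPM in ME and 180.1 ± 9.69 CPM in control (-0.31 ± 0.10, adjusted p = 0.0335). The effect at 8wk minus that at E16 was 0.87 ± 0.15 log2 (adjusted p = 0.00547), and 8wk minus P14 was 0.84 ± 0.15 (adjusted p = 0.0213). The first difference held under every alternative run. The second lost its call with only its groups (0.0892) and without 8wk control replicate 2 (0.0741), 8wk ME replicate 1 (0.0502), 2 (0.0616) or 3 (0.0559) or P14 ME replicate 4 (0.0674). The E16 call ended with library size only (0.0954), without E16 control replicate 2 (0.0553) and without E16 ME replicate 4 (0.0830). Summed macrophage markers, from cells rich in Cd44, ranged from 43.6 to 313.9 CPM in 8wk ME and from 13.3 to 84.9 CPM in 8wk control, and their part in it was not tested.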

How the results depend on the processing

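Of 2674 values of named genes under the alternatives, 2495 were kept, 117 lost a call, 9 gained one, 53 moved and 0 reversed a called direction. Kept means the same direction and side of the threshold. For the ME comparisons of Cdh2 and Pcdh7, which have no test, it means a shift smaller than the SD of log2 CPM within groups. Of 73 calls of named list genes 50 held under every alternative. Counts of genes called in the ME comparisons (4125 at E16, 4168 at P14, 5392 at 8wk) were 4257, 4333 and 5590 with the replicate block, and 2907 at 8wk with only its libraries. Leaving out 1 library gave 3024 to 3719, 2875 to 4409 and 3433 to 6571. Differences of the ME effect were less stable. The 161 for 8wk minus E16 became 250 with at least 1 CPM in 4 libraries, 592 with DESeq2, 254 with GC correction, 107 with no filter, 55 with only its groups, 357 with the replicate block and 1362 without the 3 libraries that stand apart (48 to 896 leaving out 1 library). The 57 for 8wk minus P14 became 297 with DESeq2, 0 with only its groups and 1009 without the 3 libraries (4 to 369). The 4 for P14 minus E16 became 29 with DESeq2 and 10 without the 3 libraries (1 to 5). Control 8wk against P14 called 2384 genes, or 1483 with no filter, 1092 with only its groups and 3605 without the 3 libraries (929 to 3115). Leaving out 1 library gave 3333 to 4916 for control 8wk against E16 and 2091 to 2593 for P14 against E16. The causes were not tested. The block ended the calls of Cdh3 at P14 (adjusted p = 0.0942) and Nectin2 at E16 (0.0554) and changed no other call of a named gene. At E16 (r -0.043 to 0.001) and 8wk (-0.088 to 0.118) same-numbered libraries did not all deviate together, which does not settle whether they are paired. Depth limits the 8wk controls of Cdh2, which held 2 counts.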
